A study of Vulpes lagopus with 12 samples.

Results

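The STAT transcription factors STAT2, STAT3, STAT4, STAT5B and STAT6, 3 feedback inhibitors (SOCS1, SOCS3 and CISH) and the repressor BCL6 were followed in blood RNA of Arctic foxes and on a canine control array. The members were the genes named in a list of 9, each read from every probe set whose only gene symbol in the probe annotation was that gene. All 9 had at least 1 such probe set, 19 in all, out of 15115 genes and 29254 probe sets with a single symbol. STAT2 had 5 probe sets, STAT3 4, and STAT4, STAT5B and SOCS3 2 each, while STAT6, SOCS1, CISH and BCL6 had 1.

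STAT proteins wait in the cytoplasm until a cytokine receptor, through its Janus kinases, phosphorylates them; they then pair, enter the nucleus and switch on genes. Among these genes are the SOCS proteins and CISH, which shut the receptor or its kinases down and so close the loop. BCL6 is a DNA-binding repressor that can occupy sites also bound by STAT factors, and it is known from germinal centre B cells, follicular helper T cells and myeloid cells. In blood, interferons act through STAT2, interleukin 6 and G-CSF through STAT3, interleukin 12 through STAT4, growth and survival cytokines through STAT5B, and interleukin 4 through STAT6. STAT proteins are switched by phosphorylation, which an RNA level does not measure.

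The series holds 12 arrays of 1 type, designed on the dog genome: 11 of Arctic foxes (Vulpes lagopus) and 1 titled as a canine control. Per the labels, all held RNA of blood cells collected in PAXgene tubes, which stabilise RNA. No age, sex, genotype, treatment or batch is labelled, nor whether the 11 samples are 11 animals. The design statement asks whether fox blood cells held polychlorinated biphenyls or mercury, but the exposure of single foxes is not in the labels, so the foxes form 1 group, numbered in the order of the series. The control is a single array without a replicate, and its organism and tissue labels read the same as those of the foxes. If samples share an animal, the spread between foxes and the p-values that rest on it are partly technical.

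Array quality and scaling touch nearly every value below. On the Affymetrix GAPDH quality probes, the 3' minus middle difference lay between 0.42 and 1.08 in foxes 9, 10 and 11, between 2.56 and 3.19 in the other 8, and at −0.08 on the control, so results are given with these 3 foxes apart. The values of an array also differed in their overall spread: their SD lay between 1.60 and 1.79 for foxes 1 to 8, between 1.93 and 2.02 for foxes 9, 10 and 11, and at 2.11 for the control. All values are RMA expression on a log2 scale, on which a difference of 1 is a doubling, and they can be compared between arrays for 1 probe set but not between probe sets. Each fox is 1 array, so its place in an order of foxes has no error of its own.

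On the control array, 6 of the 9 members were lower than in the foxes, STAT4 was higher, and STAT3 and STAT5B did not pass the test. BCL6 had the largest difference, −2.81, or a 7.01-fold higher level in the foxes, and STAT4 stood 3.48-fold higher on the control. The test was limma on all probe sets with Benjamini-Hochberg adjustment, and a gene was called at an adjusted p under 0.05 in the probe set of its highest mean level. Over all genes 44.6% were called lower and 18.5% higher by the same rule, and the median difference over all probe sets was −0.46. The median over the 9 members was −0.91, beside −0.53 over all genes. With 1 control array the fit assumes that this array varies as the foxes do, and the smallest p that exact permutation allows for 1 array among 12 is 0.0833. In a bulk sample, fewer cells of a type and less RNA per cell cannot be told apart.

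**Figure D1:**
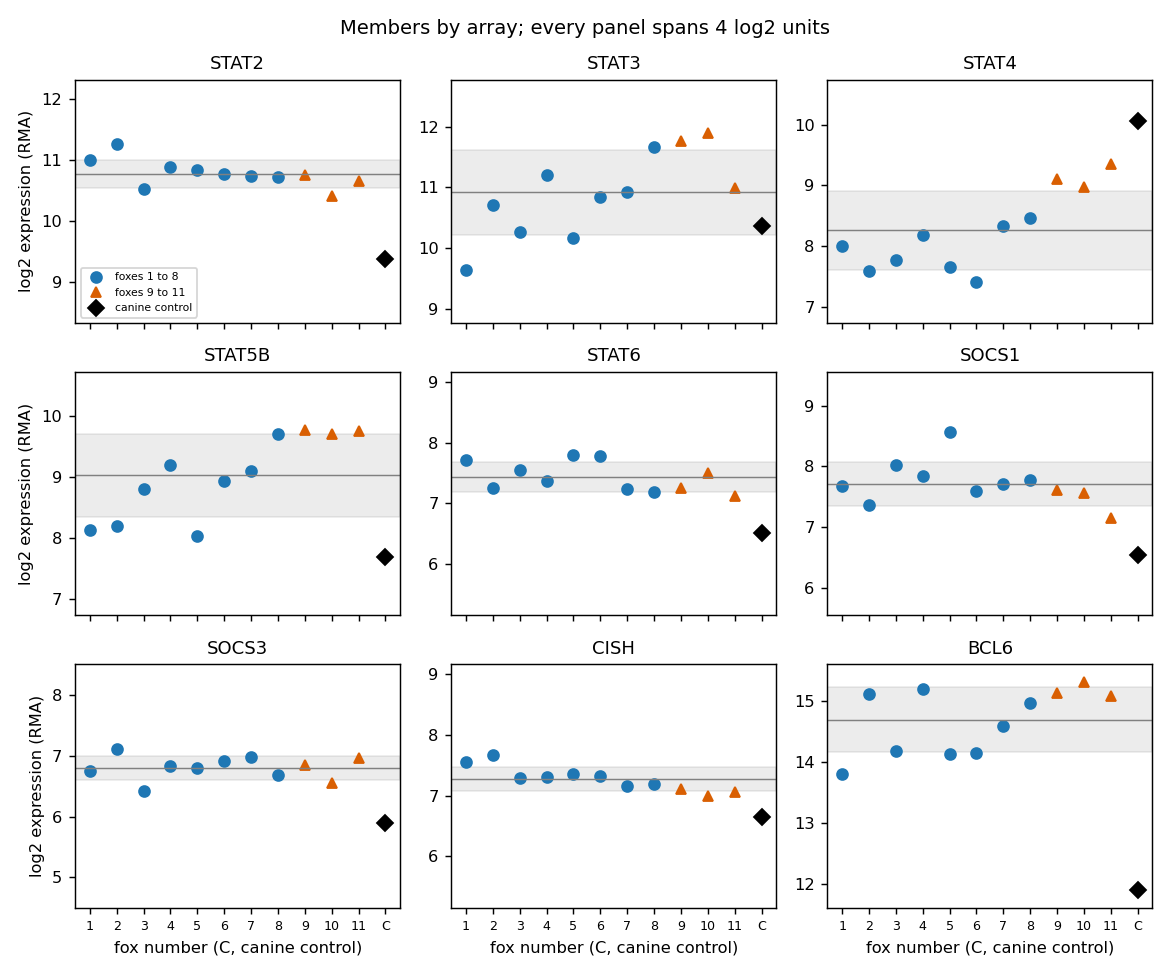
RMA log2 expression (y axis) of each member on each array (x axis; C, canine control), 1 probe set per gene; line and band show the mean and SD of the 11 foxes. The control diamond lies below all foxes in 7 panels, above all in STAT4 and inside them in STAT3.

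STAT2, which acts with IRF9 in the response to type I interferon, had a middling spread in its probe set with the highest mean. Its SD of 0.23 (n = 11) was larger than that of 49.5% of genes, and within foxes 1 to 8 than that of 61.0%. It ran from 10.41 in fox 10 over a median of 10.75 to 11.27 in fox 2, and foxes 9, 10 and 11 (10.75, 10.41 and 10.66) overlapped the others. After quantile normalization again these foxes (9.85 to 10.35) lay below foxes 1 to 8 (10.75 to 11.97). In the deposited values the control stood at 9.37, below every fox. The difference was −1.41 (SE 0.24, adjusted p by limma 0.000417), and it was called in the alternatives with rescaled arrays too.

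STAT3, which carries signals of interleukin 6 and G-CSF, spread widely between foxes. Its level was lowest in fox 1 (9.65), had a median of 10.93 and was highest in fox 10 (11.89). Fox 8 (11.67) lay with foxes 9 and 10 (11.77 and 11.89), while fox 11 (11.00) lay among the others, so the 2 sets of foxes overlapped. Its SD of 0.70 (n = 11) was larger than that of 89.9% of genes, and its SD of 0.64 within foxes 1 to 8 larger than that of 95.1%. The control, at 10.37, fell inside the foxes, with a difference of −0.55 from their mean (SE 0.67, adjusted p by limma 0.484). After quantile normalization was run again, the difference was −1.41 and was called (adjusted p by limma 0.0150).

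STAT4, the interleukin 12 factor of T and NK cells, had levels from 7.42 in fox 6 to 8.46 in fox 8 within the first 8 foxes. Foxes 9, 10 and 11 stood at 9.10, 8.98 and 9.35, above all of these, and the control at 10.06, above all 11. STAT4 was the 1 member of 9 with foxes 9, 10 and 11 all above foxes 1 to 8, a pattern shown by 14.2% of all genes. After quantile normalization was run again the order of the sets held, 8.76 to 9.15 against 7.41 to 8.46. The control differed from the foxes by 1.80 (SE 0.62, adjusted p by limma 0.0251), and without foxes 9, 10 and 11 by 2.13 (adjusted p by limma 0.000451). After quantile normalization again it was 1.12 and was not called (adjusted p by limma 0.105). Among NK and cytotoxic cell markers 5 of 8 measured genes had foxes 9, 10 and 11 all above the other foxes, and the mean level of these markers lay between 7.85 and 8.46 in them, between 7.10 and 7.61 in the others and at 7.40 on the control. Among T cell markers 3 of 12 did, with mean levels of 8.44 to 8.65, 8.02 to 8.29 and 7.69. The pattern was not limited to these lists: 5 of 8 monocyte markers showed it, with mean levels of 10.85 to 11.12, 9.55 to 10.24 and 8.54. Of platelet markers 3 of 7 did, and of neutrophil markers 2 of 9, but 0 B cell or red cell markers. The part of any of these cell types in the STAT4 levels was not tested.

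STAT5B, a factor of growth hormone and survival cytokines, had the second largest SD of the members, 0.68 (n = 11). It was lowest in fox 5 (8.04), fox 1 (8.13) and fox 2 (8.19), with a median of 9.10 over the foxes. The highest levels were those of foxes 8, 9, 10 and 11, between 9.70 and 9.77, and fox 8 lay among foxes 9, 10 and 11. The control stood at 7.68, below all foxes. The difference of −1.35 had an SE of 0.64 and was not called (adjusted p by limma 0.0856).

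STAT6, the interleukin 4 factor, had an SD of 0.25 (n = 11), larger than that of 55.6% of genes. It lay between 7.12 in fox 11 and 7.80 in fox 5, with a median of 7.37. Foxes 9, 10 and 11 overlapped the rest, and the control stood below all foxes at 6.52. The difference was −0.91 (SE 0.25, adjusted p by limma 0.00870). It was −0.65 with arrays centred on their medians and −0.64 after quantile normalization again, and neither was called (adjusted p by limma 0.0609 and 0.0738).

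Of the inhibitors, SOCS1, which blocks Janus kinases after interferon, was set apart by 1 fox. It stood at 8.57 in fox 5, with fox 3 next at 8.02, a median of 7.68 and a minimum of 7.15 in fox 11. Foxes 9, 10 and 11 (7.61, 7.56 and 7.15) were in the lower part of the range and overlapped it. The control, at 6.54, lay below all foxes by a mean difference of −1.18 (SE 0.36, adjusted p by limma 0.0132). With arrays centred on their medians the adjusted p by limma was 0.0503, and after quantile normalization again 0.0739.

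SOCS3, the brake on interleukin 6 and G-CSF receptors and a classical STAT3 target, was among the most even members. Its mean array value was above that of 23.9% of genes, the lowest share of the members, and it dropped out when low-level probe sets were left out. Values of different probe sets cannot be compared as RNA amounts, so this share is only a place on the array scale. Whether this low level limits its spread was not tested. It ran from 6.42 in fox 3 over a median of 6.84 to 7.11 in fox 2, with an SD of 0.20 (n = 11), and foxes 9, 10 and 11 (6.84, 6.55 and 6.96) lay inside the others. The foxes with high STAT3 were not those with high SOCS3: fox 10, highest in STAT3, was the second lowest in SOCS3. The control stood at 5.90, and the difference of −0.90 (SE 0.21, adjusted p by limma 0.00303) was also called after both rescalings.

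CISH, a SOCS-box protein induced by STAT5, was the 1 member with foxes 9, 10 and 11 all below foxes 1 to 8, a pattern of 14.6% of genes. They stood at 7.11, 6.99 and 7.05, against 7.16 in fox 7 to 7.66 in fox 2, where the SD over all foxes was 0.20 (n = 11). After quantile normalization again the sets overlapped, at 7.03 to 7.10 and 7.09 to 7.62. The control stood below all foxes, at 6.65. Its difference of −0.62 (SE 0.21, adjusted p by limma 0.0240) was not called with centred arrays (−0.35, adjusted p by limma 0.169) or after quantile normalization again (−0.35, adjusted p by limma 0.183).

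BCL6 had high array values in every fox and fell into a lower and a higher set of arrays. Foxes 1, 3, 5 and 6 stood between 13.80 and 14.18 and fox 7 at 14.59, while foxes 2, 4 and 8 stood at 15.11, 15.20 and 14.97, together with foxes 9, 10 and 11 at 15.14, 15.32 and 15.09. The overall SD of an array moved with this: it lay between 1.60 and 1.67 in foxes 1, 3, 5 and 6, 1.70 in fox 7 and between 1.76 and 1.79 in foxes 2, 4 and 8. After quantile normalization was run again the fox values of BCL6 lay between 14.55 and 15.10, and their SD fell from 0.54 to 0.19 (n = 11). The largest value on any fox array was 15.64, so the upper BCL6 values lay near the end of the scale; whether that limits its fold was not tested. The same step widened STAT2 instead, from an SD of 0.23 to 0.64, and put foxes 9, 10 and 11 (9.85 to 10.35) below foxes 1 to 8 (10.75 to 11.97) in it.

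The control array had BCL6 at 11.89, below every fox, by −2.81 (SE 0.52, adjusted p by limma 0.000780). Only 0.595% of genes had a more negative difference. It was called in every alternative run, with −2.54 for centred arrays, −3.89 after quantile normalization again and −2.63 without foxes 9, 10 and 11. Markers of every blood cell type listed were partly lower on the control too, where 44.6% of all genes were. Of neutrophil markers, 6 of 9 measured genes were lower, none was higher, and their mean level was 7.26 there, against 8.97 to 10.47 for foxes 1 to 8 and 10.03 to 11.10 for foxes 9, 10 and 11. Among monocyte markers 5 of 8 were lower, with means of 8.54, 9.55 to 10.24 and 10.85 to 11.12. Among B cell markers, 7 of 8 were lower, with means of 6.31, 7.09 to 7.23 and 6.91 to 7.14. Of red cell, platelet, T cell and NK cell markers, 6 of 7, 4 of 7, 7 of 12 and 4 of 8 were lower; the red cell mean was 7.33 on the control against at least 7.98 in the foxes, and the platelet mean 6.41 against at least 7.57. HEMGN of the red cell list was higher on the control (3.32), as were CD3G (1.12) and CD3D (0.36) of the T cell list. Of NK cell markers GZMB (1.67), GZMA (1.27) and KLRD1 (0.69) were. Liver markers had a mean of 12.72 on the control against 7.25 to 7.54 in the foxes, and intestinal markers 12.24 against 6.11 to 6.39. Muscle markers had 10.13 against 6.53 to 6.85 and fat markers 9.42 against 6.77 to 7.42, although the label of the control reads blood. The median differences were 5.60, 8.20, 3.27 and 0.81 in this order. AHSG (−0.18) in liver, MUC2 (−0.76) in intestine, and MYH1 (−0.58) and CASQ1 (−0.73) in muscle were below the fox mean. So were PLIN1 (−1.04) and LEP (−0.61) in fat, where FABP4 differed by 9.65. What part these cell types had in any member's difference was not tested.

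**Figure D2:**
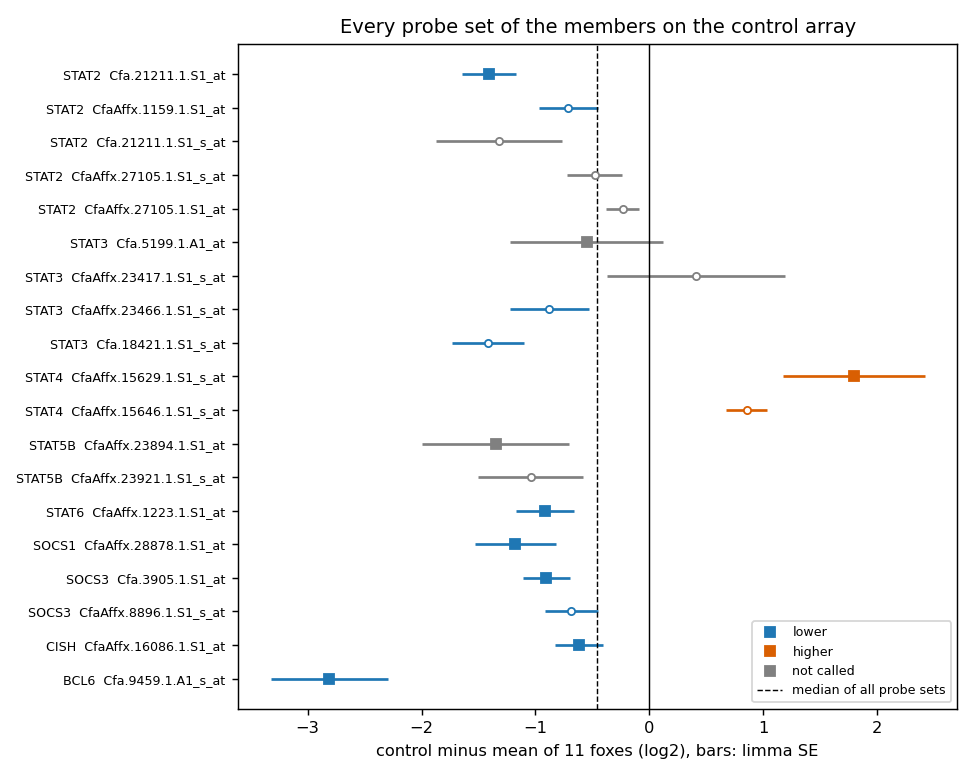
Control minus mean fox level (log2, x axis) for all 19 probe sets, with limma SE; squares mark the probe set with the highest mean of a gene, blue is called lower, orange higher, grey not called. The 2 STAT4 probe sets lie right of 0 and the BCL6 probe set farthest left, at −2.81; the dashed line is the median of all probe sets, −0.46.

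The median of all probe sets was itself below 0, so the members were also read against it. Relative to −0.46, the difference of STAT4 was 2.25 and those of the other 8 members ran from −0.09 for STAT3 to −2.35 for BCL6, with STAT2 at −0.95 and CISH at −0.16. In all, 7 members had the control below all 11 foxes, beside 56.1% of genes, and 1 had it above all, beside 21.7%. Of the 19 probe sets, 10 were called lower, beside 42.1% of all probe sets, and 2 higher, beside 18.9%. Of all probe sets, 18091 were called lower and 8092 higher. That split became 9914 and 9348 with arrays centred on their medians, and 12648 and 7755 after quantile normalization again. Nothing particular to the 9 genes is read from these counts. Rescaling reduced the members called to 4: with centred arrays STAT2, SOCS3 and BCL6 were lower and STAT4 higher, and after quantile normalization again STAT2, STAT3, SOCS3 and BCL6 were lower.

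Where a gene had several probe sets, they did not always tell the same story, so the level of a gene here is that of 1 probe set; below, the probe sets of a gene are ranked by their mean level. The 4 STAT3 probe sets divided on the control. The fourth was lower there (−1.42, adjusted p by limma 0.00264), and the third differed by −0.88 (adjusted p by limma 0.0429), a call that ended without any 1 of foxes 4, 5, 7, 8, 9 and 11. It also ended with centred arrays (−0.61, adjusted p by limma 0.167) and after quantile normalization again (−0.63, adjusted p by limma 0.164). The second went the other way, at 0.41 (adjusted p by limma 0.660), and without foxes 9, 10 and 11 at 0.84 (adjusted p by limma 0.00160). That probe set was even in foxes 1 to 8, from 6.97 to 7.42, and stood at 8.99, 9.43 and 7.89 in foxes 9, 10 and 11. Over foxes 1 to 8 it had a Pearson r of 0.34 with the first STAT3 probe set, and the third had 0.83.

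In STAT2, the first and the third probe set share the stem of their name and the source transcript given for them, and differed in their pattern over foxes. The first is the one described above. The third ran between 6.66 in fox 1 and 7.96 in fox 8 and stood at 8.46, 8.62 and 8.21 in foxes 9, 10 and 11, above all of foxes 1 to 8; their r over foxes 1 to 8 was −0.19. On the control it lay below all foxes at 6.39, but the difference of −1.32 was not called (adjusted p by limma 0.0552) unless fox 1 (0.0217) or fox 10 (0.0468), or foxes 9, 10 and 11 together (0.0274), were left out. The second was called lower (−0.71, adjusted p by limma 0.0316), but not with centred arrays (−0.44, adjusted p by limma 0.192), and the fourth and the fifth were not (−0.48 and −0.24). The control lay below all foxes in all 5 STAT2 probe sets.

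**Figure D3:**
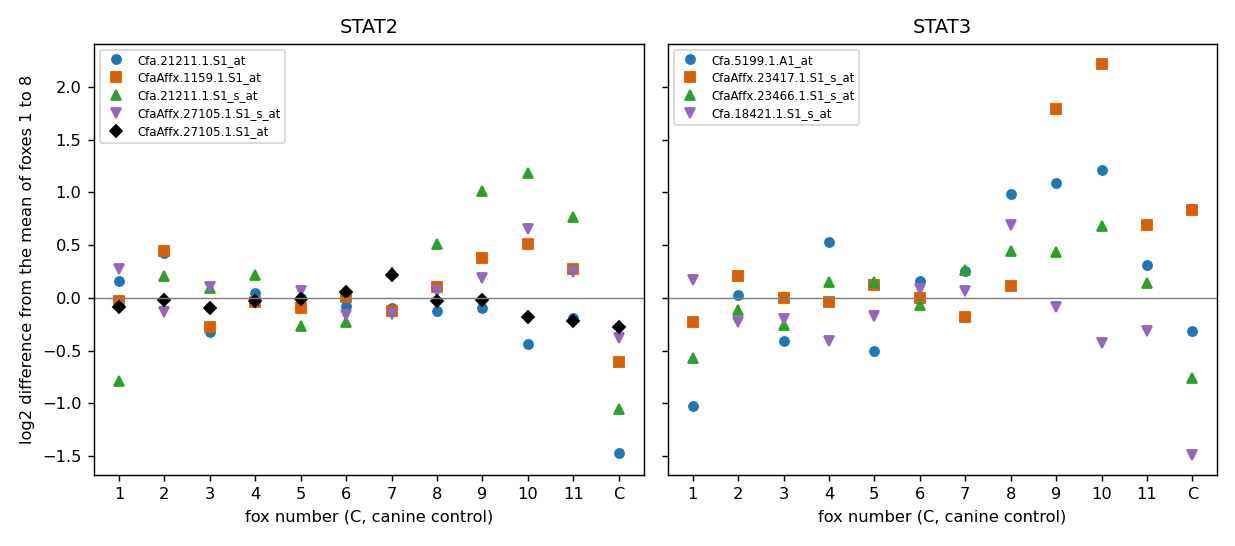
Level of each probe set of STAT2 (left) and STAT3 (right) on each array, as the log2 difference from its mean in foxes 1 to 8 (y axis); the x axis is the fox number, C the canine control. Probe sets of 1 gene spread apart in foxes 9, 10 and 11, most in STAT3. There the second probe set (orange squares) was highest in fox 10, whose level of 9.43 is drawn relative to a mean of 7.20. Legends list the probe sets by mean level.

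In the genes with 2 probe sets, both gave the same direction on the control, while their patterns over foxes were alike in STAT5B but not in STAT4 or SOCS3. Both of STAT4 were called higher on the control, the second by 0.85 (SE 0.18, adjusted p by limma 0.00165) and also after quantile normalization again (0.94, adjusted p by limma 0.00221). In the foxes this second probe set was flat, at 6.67 to 7.04 in the first 8 foxes, and foxes 9, 10 and 11 (7.24, 7.01 and 6.93) overlapped them. Its r with the first over foxes 1 to 8 was 0.12. The second STAT5B probe set followed the first (r 0.77), and in it foxes 9, 10 and 11 (9.09, 9.07 and 8.82) all lay above the others (7.72 to 8.58). It was not called on the control (−1.04, adjusted p by limma 0.0659), but was without fox 1 (0.0462) or without foxes 9, 10 and 11 (−0.80, adjusted p by limma 0.0179). Both SOCS3 probe sets were called lower, the second by −0.69 (adjusted p by limma 0.0242), though this call was lost with centred arrays (−0.42, adjusted p by limma 0.142) and after quantile normalization again (−0.49, adjusted p by limma 0.0625), while their r over foxes 1 to 8 was −0.16.

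Whether members moved together was read over foxes 1 to 8, since foxes 9, 10 and 11 form a separate set and a pooled correlation over 11 would mix the sets. Of 36 pairs of members, 14 had a positive Pearson r, and the median r was −0.16. By the exact two-sided permutation test with Benjamini-Hochberg adjustment over the 36 pairs, 0 passed 0.05 by Pearson's r, 6 had an unadjusted p under 0.05, and 1 passed by Spearman's rho.

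STAT3 and STAT5B were the pair that passed by rank. Their r was 0.86 (exact permutation p 0.00766, adjusted 0.138) and rho 0.95 (exact permutation p 0.00114, adjusted 0.0411), and without foxes 1 and 8, those farthest from the median of STAT3, r was 0.71. STAT2 and CISH had an r of 0.84 (exact permutation p 0.00769, adjusted 0.138), rho 0.83 (exact permutation p 0.0154, adjusted 0.277), and 0.89 without foxes 2 and 3; when the probe sets of each gene were averaged it was 0.20. Leaving out fox 3 brought both pairs past the threshold by Pearson's r (adjusted exact permutation p 0.0429 for each), and no other single omission did. Without fox 8 the r of STAT3 and STAT5B was 0.76 (adjusted exact permutation p 0.410). Without fox 2 that of STAT2 and CISH was 0.63 (adjusted exact permutation p 0.346). After quantile normalization again the 2 pairs had an r of 0.79 and 0.63.

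STAT3 and BCL6 had a positive r (0.79, exact permutation p 0.0196, adjusted 0.186; rho 0.76, exact permutation p 0.0368, adjusted 0.278), and STAT6 and BCL6 a negative one (−0.83, exact permutation p 0.0258, adjusted 0.186; rho −0.71, exact permutation p 0.0576, adjusted 0.278), but neither passed after adjustment. Without the 2 farthest foxes these r were 0.68 and −0.83. The SD of the arrays moved with BCL6 over the same foxes, and after quantile normalization again the r of STAT3 and BCL6 was 0.52 and that of STAT6 and BCL6 −0.79.

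The textbook pairs of a factor and its target, STAT5B with CISH and STAT3 with SOCS3, gave no common direction. STAT5B and CISH had an r of −0.77 (exact permutation p 0.0242, adjusted 0.186), rho −0.74 (exact permutation p 0.0458, adjusted 0.278), and −0.91 without foxes 5 and 8. STAT3 and SOCS3 had 0.20 (exact permutation p 0.654, adjusted 0.783), rho 0.17 (exact permutation p 0.703, adjusted 0.844), and 0.52 without foxes 1 and 8. STAT2 and SOCS3, not such a pair, had 0.74 (exact permutation p 0.0446, adjusted 0.268), rho 0.55 (exact permutation p 0.171, adjusted 0.440), and −0.25 without foxes 2 and 3, so that relation rested on those 2 foxes.

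**Figure D4:**
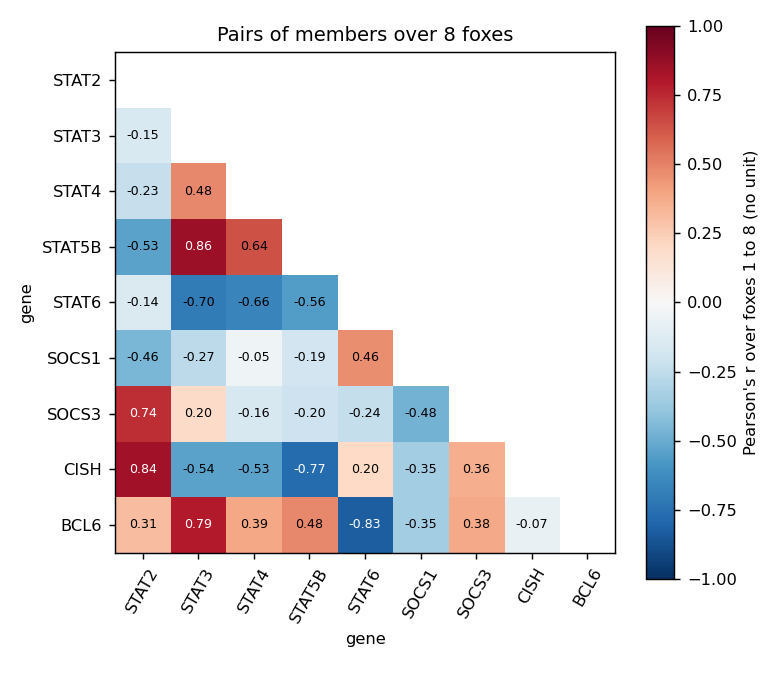
Pearson's r (colour and printed value, no unit) for each pair of members over foxes 1 to 8, 1 probe set per gene. The highest value is 0.86 for STAT3 with STAT5B and the lowest −0.83 for STAT6 with BCL6; none of the 36 passed the adjusted threshold.

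The genes nearest to each member in pattern over foxes 1 to 8 were sought among 7260 genes with a fox mean above that of the median gene. Members and genes with placeholder symbols were left out. The search is a description of the deposited values over 8 arrays that share their scaling. It was not repeated after quantile normalization, where the SD of BCL6 over these foxes fell from 0.53 to 0.19. BCL6 had the most near neighbours: 459 genes reached an r of 0.9, the nearest being MCL1, a survival factor of the BCL2 family (r 0.994), and MRFAP1 (0.993). STAT3 had 141 such genes, led by PARP11 (0.994) and RALGAPA2 (0.987), and STAT5B 127, led by the DNA demethylase TET1 (0.984) and the chaperonin subunit TCP1 (0.982). Among the inhibitors there were 3 for SOCS1 (RXFP3 and ARHGDIG first, 0.955 and 0.925), 5 for CISH (NAA40 and ALKBH4, 0.940 and 0.937) and 23 for SOCS3 (CMTM2 and MAP3K9, 0.972 and 0.971). The remaining members were STAT6 with 41 (GNAO1 and DVL3, 0.962 and 0.959), STAT4 with 18 (RNF216 and EIF3B, 0.978 and 0.974) and STAT2 with 15 (TBXA2R and RNF215, 0.964 and 0.963).

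The rest of the pathway was read from 6 lists of 106 genes, of which 94 were measured. On the control 59 were called lower, 7 higher and 28 not at all, with a median difference of −0.84, beside 44.6% lower, 18.5% higher and a median of −0.53 over all genes. With arrays centred on their medians 39 were lower and 7 higher. Of the listed genes, 2 also stood in a cell marker list. Foxes 9, 10 and 11 lay above the other foxes in 15 and below them in 15, close to the shares over all genes (14.2% and 14.6%).

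Upstream of the STAT factors, 14 of 19 cytokine ligands were lower on the control and none was higher, with all differences between −1.09 and −0.01. The largest were those of CSF3, which encodes G-CSF (−1.09, adjusted p by limma 0.0040), IL10 (−1.08), IL12A (−0.98) and EPO (−0.96). Most ligands, IL2, IL6 and IL21 among them, had a fox mean below that of the median gene. What part such low levels had in these differences and in the spread was not tested. In the foxes the ligands were even, with a median SD of 0.17, and those that varied most over foxes 1 to 8 among the higher ones were CSF3, IL11 and IL10, with SDs of 0.31, 0.22 and 0.20. Of 29 receptor chains 20 were lower and 2 higher. The growth hormone receptor GHR, abundant in liver, was higher by 4.88 (adjusted p by limma 7.13e-09), while IFNAR1, the receptor chain for type I interferon, was lower (−2.16), as were IFNGR1 (−1.17) and IL12RB1 (−1.13). IL13RA1, IFNGR2 and IL10RB varied most in foxes 1 to 8, with SDs of 0.78, 0.68 and 0.53.

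Beside the STAT factors, 4 of 6 Janus kinases and STAT partners were lower. IRF9, the partner of STAT2, differed by −1.76 (adjusted p by limma 0.0133), STAT5A by −1.56 (adjusted p by limma 0.0108), JAK3 by −1.03 and TYK2 by −0.83. JAK1 and JAK2 were not called (0.02 and −0.46) and had wide fox SDs, 0.71 and 0.73 (n = 11). In IRF9 foxes 9, 10 and 11 all lay above the others, but only just: their lowest level was 9.84 and the highest of the others 9.81.

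Downstream, the other inhibitors went both ways, with 4 of 14 lower and 3 higher. PIAS3, which binds STAT3, differed by −1.58 and the phosphatase PTPN1 by −1.39, while PIAS2 (1.57) and SOCS5 (1.39) were higher. The phosphatase PTPRC (CD45) varied widely, with 9.22 as the lowest and 12.03 as the highest level of the first 8 foxes, while the last 3 reached 12.04 to 13.15; it differed by −2.86 on the control and was not called (adjusted p by limma 0.0614). PTPN2 and SOCS6 followed in spread, with SDs of 0.89 and 0.58 in foxes 1 to 8. Of 17 measured STAT targets, 10 were lower and 2 higher: the cyclin CCND2 (2.43) and the chemokine CXCL10 (1.56) were higher, the decoy receptor IL1R2 (−2.30) and the kinase PIM1 (−1.53) lower. IL1R2, MCL1 and PIM1 had the largest SDs in foxes 1 to 8, at 0.83, 0.73 and 0.59. Of the 10 measured corepressors and opposing factors of BCL6, 8 were lower and none higher, and the largest differences were those of CTBP1 (−1.22), HDAC4 (−1.18), ZBTB17 (−1.003) and BCOR (−0.92). NCOR1 was not called (0.03), and PRDM1, the factor that BCL6 represses in B cells, differed by −0.89 (adjusted p by limma 0.00139) and ran only from 7.47 to 8.06 in foxes 1 to 8. HDAC5 was also not called (−0.48), with foxes 9, 10 and 11 (8.85 to 9.80) above the others (7.47 to 7.90).

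**Figure D5:**
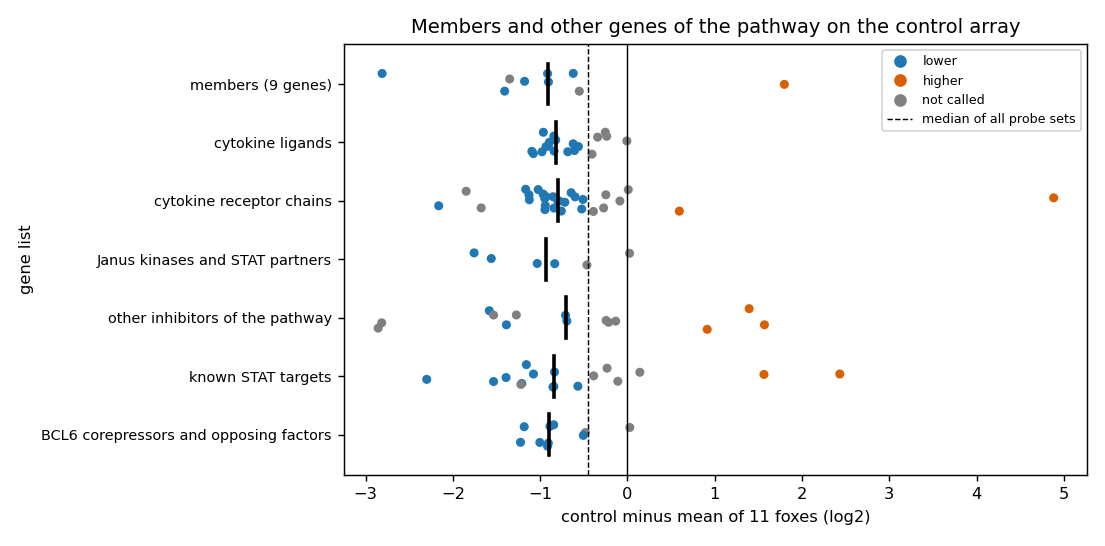
Control minus mean fox level (log2, x axis) for the 9 members and each of 6 pathway lists (y axis); each point is a gene, coloured by its call, and the thick bar is the list's median. All 7 medians lie left of the dashed line at −0.46, the median of all probe sets; the point at 4.88 is GHR.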

How the data were processed

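The authors deposited log2 values per probe set, made, per the submitters' processing notes, with Affymetrix Expression Console by RMA; the sources used here state neither versions nor whether the 12 arrays were normalized together. Of 43035 probe sets, with no value missing, 111 Affymetrix control probe sets were left out of the tests and 42924 kept. It has no detection call, so no floor was set. The arrays' number limits the precision.

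The 9 members and the gene lists were chosen with earlier results of these data known. A gene was read from 1 probe set, that of highest mean level. limma 3.58.1 in R 4.3.3 (lmFit, eBayes) compared the control with the 11 foxes over all probe sets, with Benjamini-Hochberg adjustment, and was tested on simulated data. Pairs of members were tested by exact two-sided permutation over foxes 1 to 8. No sequences were used. Genes named beyond the members were, per pathway list, up to 4 called genes of largest absolute difference and up to 3 of largest SD over foxes 1 to 8 with a fox mean above the median gene, and the 2 nearest genes per member.

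Alternatives were quantile normalization again, arrays centred on their medians, low-level probe sets left out, limma trend and robust settings, a log2 difference of at least 1, probe sets averaged per gene, and foxes left out.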

Additional observations from a re-analysis of the deposited data

How the results depend on the processing

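Of 9 members, 7 were called on the control. The count was 4 with arrays centred on their medians, 4 after quantile normalization again and 4 with a log2 difference of at least 1, 6 of 8 with low-level probe sets left out, and stayed at 7 whichever 1 fox, or foxes 9, 10 and 11 together, were left out. Over all probe sets 26183 were called, against 19262 with arrays centred on their medians and 20403 after quantile normalization again. With low-level probe sets left out 12802 of 21462 were called, and 11816 with a log2 difference of at least 1. With 1 fox left out the count lay between 25001 and 27620. Of the other pathway genes 66 were called, and 26 with a log2 difference of at least 1; with 1 fox left out 63 to 68 were. Of the 36 member pairs 0 passed by Pearson's r, and with 1 of foxes 1 to 8 left out, 0 to 2 did. None passed with either rescaling or with probe sets averaged per gene, but some r changed sign. For STAT2 and BCL6, r was 0.31 in the main run, −0.83 after quantile normalization again and 0.87 with averaged probe sets. For STAT2 and STAT6 it was −0.14, 0.75 and −0.83 in the same order. The STAT2 probe set of lowest mean, not called, turned from −0.24 to 0.032 with centred arrays and 0.051 after quantile normalization again. The median difference over all probe sets moved from −0.46 to −0.19 with centred arrays and −0.31 after quantile normalization again. The cause of these changes was not tested, except that fewer probe sets were tested with low-level ones left out. With limma's trend and robust settings, all 19 member probe sets kept direction and call. No paired analysis was possible because the control is 1 array and no label links it to a fox.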
